A study of Mus musculus with 6 samples.

Results

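The CXC chemokine genes *Cxcl1*, *Cxcl2*, *Cxcl9*, *Cxcl10*, *Cxcl12*, *Cxcl13* and *Cxcl14* were followed in RNA from mouse liver macrophages. They were chosen by symbol from the family of small secreted proteins that direct the migration of leukocytes, and they make up 7 of the 49315 genes counted. All 7 were found by identifier and all 7 had enough reads to be tested. The libraries came from liver cells captured on F4/80 beads, mostly Kupffer cells (macrophages that reside in the sinusoids), taken from 3 WT and 3 Lpcat3 KOMac mice after 16 weeks on a diet with 60% fat, with 1 library per mouse. Both groups were C57BL/6N littermates carrying floxed *Lpcat3* alleles (*Lpcat3* fl/fl), were put on the diet as young adults and received no other treatment. WT mice lacked Cre (LysM +/+), and Lpcat3 KOMac mice carried 1 *LysM* allele driving Cre (LysM Cre/+), which is active in myeloid cells, neutrophils and monocytes among them, and not in Kupffer cells alone. *Lpcat3* encodes an acyltransferase that places polyunsaturated fatty acids into membrane phospholipids.

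CXC chemokines act through G protein-coupled receptors on the cells they attract. CXCL1 and CXCL2 bind CXCR2 and recruit neutrophils. CXCL9 and CXCL10 are induced by interferons and bind CXCR3 on T and NK cells. CXCL12 binds CXCR4 and ACKR3 and is made mainly by stromal and endothelial cells, CXCL13 binds CXCR5 and draws B cells, and CXCL14 is a constitutively made member without a settled receptor. Macrophages are a known source of several of them, with *Cxcl1*, *Cxcl2* and *Cxcl10* under the control of NF-kappaB, and *Cxcl10* also under the control of interferon-stimulated factors.

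Total counts were between 44954224 and 71392812 per library. *Lpcat3* itself was at 85, 66.2 and 61.2 CPM (TMM-scaled reads relative to library size and composition) for WT mice 1 to 3 against 19.5, 33.3 and 19.4 CPM for Lpcat3 KOMac mice 1 to 3. Its values did not overlap and the transcript was lower but still present, at a log2 fold change of -1.56 ± 0.26 (SE, edgeR adjusted p = 1), and DESeq2 called it. All 8 Kupffer cell markers were detected well above 1 CPM in every library, with a summed level of 29700 to 41300 CPM in WT and 23400 to 32500 CPM in Lpcat3 KOMac cells. Transcripts of other liver cells were also present. The 5 hepatocyte markers summed to 1670 to 18800 CPM in WT and 4230 to 12200 CPM in Lpcat3 KOMac cells, with WT mouse 1 and Lpcat3 KOMac mouse 2 highest. The 8 sinusoidal endothelial markers summed to 1610 to 2170 and 1690 to 2100 CPM, and the 8 stellate cell and fibroblast markers to 109 to 210 and 170 to 282 CPM in WT and Lpcat3 KOMac cells, respectively. Markers of T and NK cells, bile duct and mesothelium were near 0, with all 6, all 4 and all 5 genes, respectively, below 1 CPM in every library. In such bulk samples, fewer cells of a type and less RNA per cell cannot be told apart.

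No difference between the genotypes was detected for any of the 7 chemokines. In edgeR's quasi-likelihood test 0 of the 7 had an adjusted p-value under 0.05, beside 0 of all 16134 genes tested (0.0%), while unadjusted p-values under 0.05 were found for 0 of the 7, against 426 of all genes (2.64%). That count rested on single libraries, with 2028 genes without WT mouse 1 and 179 without Lpcat3 KOMac mouse 1. DESeq2 called 11 of 15000 genes (0.0733%) and limma-voom 0, again with 0 of the 7 in either. For every chemokine the values of the genotypes overlapped, whereas 1208 of all genes tested (7.49%) had no overlap. The log2 fold changes of Lpcat3 KOMac against WT lay between -1.09 and 0.42 with a median of -0.09, beside a median of -0.04 over all genes. The spread between mice was wide within each genotype for most members. Among the 3 WT mice the ratio of highest to lowest ran from 1.06 for *Cxcl14* to 3.97 for *Cxcl13*, and among the 3 Lpcat3 KOMac mice from 1.48 for *Cxcl14* to 5.99 for *Cxcl13*. Over all 6 libraries, both genotypes together, the ratio ran from 1.48 for *Cxcl14* to 16.1 for *Cxcl13*, and 6 of the 7 were above the median ratio of 1.62 over all genes.

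**Figure D1:**
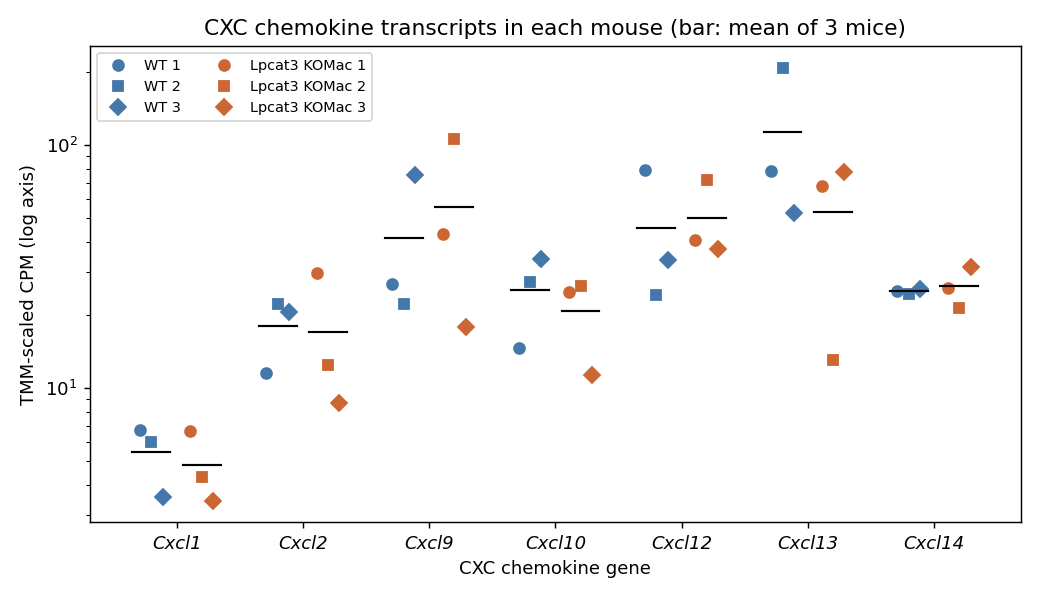
TMM-scaled CPM (log axis) of the 7 CXC chemokine genes in each of the 3 WT (blue) and 3 Lpcat3 KOMac (orange) mice, with a bar at the mean of each group. The groups overlap for every gene, and *Cxcl13* spans 13 to 209 CPM while *Cxcl14* stays between 21.4 and 31.6 CPM.

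Of the neutrophil chemokines, *Cxcl1* (ENSMUSG00000029380, chromosome 5 of GRCm38, 90891241 to 90893115, plus strand) was the lowest of the 7. It stood at 6.73, 5.99 and 3.56 CPM in the WT libraries (mice 1 to 3) against 6.65, 4.3 and 3.44 CPM in the Lpcat3 KOMac libraries (mice 1 to 3), on 162 to 437 counts per library. Both groups covered nearly the same range, with 1 low mouse in WT and 2 in Lpcat3 KOMac. Its log2 fold change was -0.18 ± 0.35 (SE, 95% interval -1.05 to 0.69, edgeR adjusted p = 1), and it changed sign, to 0.01 and 0.03, without WT mouse 1 or without Lpcat3 KOMac mouse 3.

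*Cxcl2* (ENSMUSG00000058427, chromosome 5, 90903871 to 90905938, plus strand) lies next to *Cxcl1*, with 10756 bases between them. It stood at 11.5, 22.2 and 20.6 CPM in the WT libraries (mice 1 to 3) against 29.7, 12.5 and 8.65 CPM in the Lpcat3 KOMac libraries (mice 1 to 3). The highest and the lowest mouse were thus both Lpcat3 KOMac. The difference was -0.09 ± 0.52 on the log2 scale (SE, edgeR adjusted p = 1), and it turned positive without WT mouse 2 (0.08), WT mouse 3 (0.01), Lpcat3 KOMac mouse 2 (0.10) or Lpcat3 KOMac mouse 3 (0.25). Its 95% interval ran from -1.37 to 1.19, or 0.386 to 2.28 times the WT level. A 2-fold rise and a fall to 0.5 of the WT level both lay inside it.

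The *Cxcl1* and *Cxcl2* promoters carry a shared run of bases just before the start. Of the 7 members, all matched RefSeq promoter windows of GRCm38.p6, and the 250 bases before each start were searched on both strands for the NF-kappaB consensus, the ISRE core (the interferon-stimulated response element, read as GAAA, any 2 bases and GAAA) and the AP-1 site TGANTCA. The stretches around the NF-kappaB and ISRE matches of *Cxcl1* (chr5:90891162-90891196, plus strand), *Cxcl2* (chr5:90903790-90903824, plus strand) and *Cxcl10* (chr5:92348971-92349114, minus strand) are shown because these are the NF-kappaB-responsive members. Capitals mark the matches, and all are written 5′ to 3′ along the gene.
Cxcl1: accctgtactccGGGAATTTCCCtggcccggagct
Cxcl2: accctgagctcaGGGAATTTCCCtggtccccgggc
Cxcl10: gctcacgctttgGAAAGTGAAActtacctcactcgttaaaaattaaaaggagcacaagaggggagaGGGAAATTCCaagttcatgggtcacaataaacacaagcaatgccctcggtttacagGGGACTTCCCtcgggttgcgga
*Cxcl1* and *Cxcl2* each held the same run of capitals, in which 2 overlapping matches of the consensus lie, from -71 to -61 and from -97 to -87 relative to the RefSeq start (the base before the start is -1). *Cxcl10* held 2 separate NF-kappaB matches, the ISRE core from -213 to -204, and an AP-1 site from -74 to -68, outside the printed stretch. *Cxcl14* held an ISRE core match, GAAACAGAAA, from -172 to -163. *Cxcl9*, *Cxcl12* and *Cxcl13* held none of the 3 motifs in this window. Over 32851 promoter windows of the same length, 3.9% held the NF-kappaB consensus, 2.98% the ISRE core and 6.75% the AP-1 site. A match is a description of letters and not of a bound factor.

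*Cxcl1* and *Cxcl2* followed each other only in part from mouse to mouse. In the Lpcat3 KOMac libraries both fell from mouse 1 to mouse 3, but WT mouse 1 had the highest WT value of *Cxcl1* and the lowest of *Cxcl2*. The ratio of *Cxcl2* to *Cxcl1* per exonic base came to 1.55, 3.36 and 5.23 in the WT libraries (mice 1 to 3) against 4.05, 2.64 and 2.28 in the Lpcat3 KOMac libraries (mice 1 to 3) (two-sided exact permutation p = 1). The ratio was above 1 in all 6 mice but spanned 3.37-fold. Likeness between genes was measured as the root mean square difference of log2 CPM, each gene centered on its own mean over the 6 libraries, and ranked over the 16133 other genes tested. *Cxcl1* was at rank 2311 in likeness to *Cxcl2* (0.57 on the log2 scale, where the median over all genes was 0.65), while *Cxcl10* was at rank 64 (0.40). The chemokine *Ccl4*, another product of activated macrophages, was at rank 71 (0.41). The rank depends on which gene is the reference. In likeness to *Cxcl1*, *Cxcl2* was only at rank 10434, its 0.57 lying above the median of 0.48 over all genes. The 3 genes nearest to *Cxcl2* were *Serpina3f* (0.19), *Gm26888* and *Slc13a2*, and those nearest to *Cxcl1* were *Gm16793* (0.14), *Gm15542* and *Cep85l*. Several of the nearest genes, *Gm26888* among them, lay below 1 CPM and rest on few reads. *Serpina3f*, a serine protease inhibitor, stood at 27.2, 48.7 and 47.8 CPM in the WT libraries (mice 1 to 3) against 52.4, 34.3 and 20.1 CPM in the Lpcat3 KOMac libraries (mice 1 to 3). Like *Cxcl2*, it was highest in Lpcat3 KOMac mouse 1.

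The receptor shared by both ligands, *Cxcr2*, carried by neutrophils, stood at 0.215, 0.12 and 0.175 CPM in the WT libraries (mice 1 to 3) against 0.258, 0.27 and 0.255 CPM in the Lpcat3 KOMac libraries (mice 1 to 3). These values rest on 6 to 15 counts per library. The groups did not overlap, with every Lpcat3 KOMac mouse higher, as for 369 of all genes tested (2.29%). In edgeR the log2 fold change was 0.60 ± 0.33 (SE, edgeR adjusted p = 1). Beside it, the 5 neutrophil markers summed to 1.96 to 2.95 CPM in WT and 4.15 to 5.4 CPM in Lpcat3 KOMac cells, and among them *Ly6g* and *Mpo* were below 1 CPM in every library. The part of these cells in the *Cxcr2* values was not tested. *Cxcr1* had at most 4 counts in any library.

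Genes that induce *Cxcl1* and *Cxcl2* or restrain the NF-kappaB pathway were examined as a list of 13 genes. All 13 were tested, 0 were called, and 10 of the 13 log2 fold changes were negative, with a median of -0.18. The 1 gene with an unadjusted p-value under 0.05 was *Nfkbia*, which encodes the inhibitor that holds NF-kappaB in the cytoplasm and is itself an NF-kappaB target. It stood at 239, 290 and 264 CPM in the WT libraries (mice 1 to 3) against 208, 143 and 181 CPM in the Lpcat3 KOMac libraries (mice 1 to 3). Every Lpcat3 KOMac mouse was below every WT mouse, which held for 839 of all genes tested (5.2%), with a log2 fold change of -0.58 ± 0.16 (SE, edgeR adjusted p = 1). *Tnf*, the cytokine, stood at 6.76, 21.2 and 19.7 CPM in the WT libraries against 17.2, 11.1 and 15.6 CPM in the Lpcat3 KOMac libraries, with no separation of the groups. The 10 genes of a list known to rise when cells are isolated from tissue, such as *Fos*, *Jun* and *Egr1*, summed to 784 to 1260 CPM in WT and 689 to 1050 CPM in Lpcat3 KOMac cells, highest in WT mouse 2 and Lpcat3 KOMac mouse 1. Those were also the highest mice of their genotypes for *Cxcl2*. Not every gene of the list followed the sum among the WT mice. *Hspa1a* and *Hspa1b* were highest in WT mouse 1 (20.9 and 41.9 CPM), where *Cxcl2* was lowest in WT. *Atf3*, highest in mouse 3 among WT (53.8 CPM), was the 1 gene with an unadjusted p-value under 0.05 in edgeR. Its log2 fold change was 0.58 ± 0.23 (SE), and 0 genes of the list were called. The part of cell isolation in the *Cxcl2* values was not tested.

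Of the interferon-induced members, *Cxcl9* (ENSMUSG00000029417, chromosome 5, 92321347 to 92328079, minus strand) stood at 26.9, 22.2 and 75.7 CPM in the WT libraries (mice 1 to 3) against 43.1, 106 and 17.8 CPM in the Lpcat3 KOMac libraries (mice 1 to 3). A single mouse stood high in each group, WT mouse 3 and Lpcat3 KOMac mouse 2, and the lowest of all 6 was Lpcat3 KOMac mouse 3. The log2 fold change was 0.42 ± 0.79 (SE, 95% interval -1.54 to 2.39, edgeR adjusted p = 1). Its sign rested on Lpcat3 KOMac mouse 2, without which it was -0.43, while without WT mouse 3 it was 1.18.

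*Cxcl10* (ENSMUSG00000034855, chromosome 5, 92346638 to 92348889, minus strand), 18559 bases from *Cxcl9*, stood at 14.6, 27.4 and 33.9 CPM in the WT libraries (mice 1 to 3) against 24.9, 26.3 and 11.3 CPM in the Lpcat3 KOMac libraries (mice 1 to 3). The spread was narrower than for *Cxcl9*, and the lowest mice were WT mouse 1 and Lpcat3 KOMac mouse 3. Its log2 fold change was -0.28 ± 0.44 (SE, 95% interval -1.36 to 0.80, edgeR adjusted p = 1), and 0.05 without Lpcat3 KOMac mouse 3. *Cxcl10* lies inside *Art3* on the opposite strand and shares 133 exonic bases with it. *Art3* had at most 148 counts in any library, against 530 to 1548 counts for *Cxcl10*.

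The relation between these neighbors was not fixed. The ratio of *Cxcl9* to *Cxcl10* per exonic base came to 1.38, 0.605 and 1.67 in the WT libraries (mice 1 to 3) against 1.29, 3.02 and 1.18 in the Lpcat3 KOMac libraries (mice 1 to 3) (two-sided exact permutation p = 0.6). Per exonic base, *Cxcl9* was the higher of both in 5 of the 6 mice, WT mouse 2 being the exception, and the ratio spanned 5-fold. Which of both is higher depends on the length used. Per kilobase of the median coding transcript, the mean of *Cxcl10* over the 6 mice (18.8 CPM) was above that of *Cxcl9* (16.9 CPM). In likeness to *Cxcl9*, *Cxcl10* was at rank 417 (0.69 on the log2 scale, where the median over all genes was 0.97). It came behind the interferon-induced GTPase *Gbp2* at rank 60 (0.52). In likeness to *Cxcl10*, however, *Cxcl9* was only at rank 10963, its 0.69 lying above the median of 0.60. The 3 genes nearest to *Cxcl9* were *Il1f9* (0.31), *4930555A03Rik* (0.32) and *Ciita* (0.33), the last being the master regulator of MHC class II genes and a target of interferon gamma. *Ciita* stood at 42.7, 43.5 and 85.9 CPM in the WT libraries (mice 1 to 3) against 54.1, 106 and 27.6 CPM in the Lpcat3 KOMac libraries (mice 1 to 3). It was high in the same mice as *Cxcl9*, WT mouse 3 and Lpcat3 KOMac mouse 2. *Cxcl10* had other near genes, *Eldr* (0.12), *Serpina3g* (0.16) and *Gm43815* (0.17). *Serpina3g* stood at 78.3, 151 and 185 CPM in the WT libraries against 169, 150 and 79 CPM in the Lpcat3 KOMac libraries. Like *Cxcl10*, it was lowest in WT mouse 1 and Lpcat3 KOMac mouse 3.

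**Figure D2:**
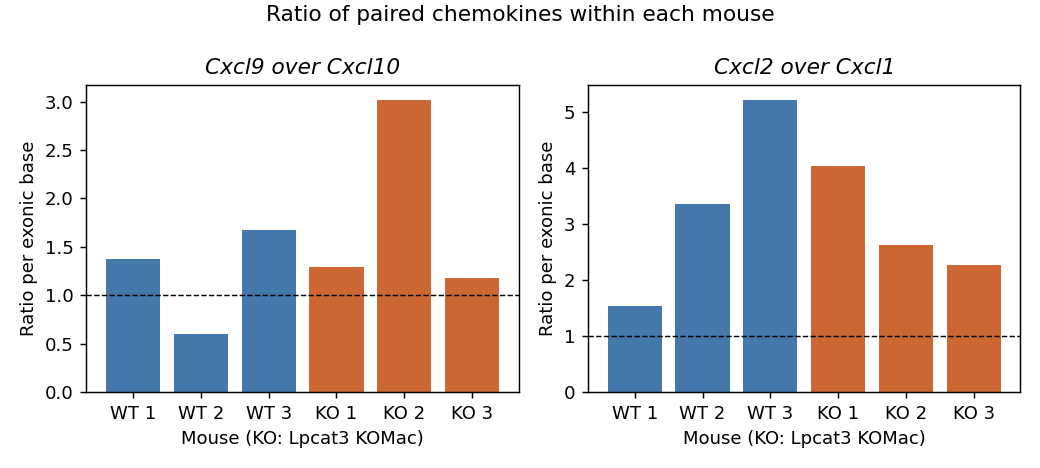
Ratio of *Cxcl9* to *Cxcl10* (left) and of *Cxcl2* to *Cxcl1* (right) per exonic base in each mouse, WT in blue and Lpcat3 KOMac in orange, with a dashed line at a ratio of 1. The *Cxcl9* to *Cxcl10* ratio runs from 0.605 to 3.02, and the *Cxcl2* to *Cxcl1* ratio from 1.55 to 5.23, with both genotypes overlapping. On which side of the dashed line the *Cxcl9* to *Cxcl10* ratio falls depends on the gene length used.

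The third ligand of CXCR3, *Cxcl11*, was at 0.14 to 0.462 CPM in WT and 0.212 to 0.636 CPM in Lpcat3 KOMac cells, on 7 to 33 counts. C57BL/6 mice are known to carry a *Cxcl11* allele that yields no full-length protein. The receptor *Cxcr3* stood at 3.02, 6.29 and 4.59 CPM in the WT libraries (mice 1 to 3) against 3.6, 4.4 and 4.78 CPM in the Lpcat3 KOMac libraries (mice 1 to 3), a log2 fold change of -0.12 ± 0.31 (SE). The T and NK cell markers summed to 0.998 to 2.36 CPM in WT and 1.04 to 2.66 CPM in Lpcat3 KOMac cells. Which cells gave the *Cxcr3* reads was not tested.

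The list of 16 genes of the interferon axis held 14 tested genes, of which 0 were called, 11 were negative and the median log2 fold change was -0.19. Their summed level was 2590 to 3020 CPM in WT and 2300 to 2490 CPM in Lpcat3 KOMac cells. Without *Irf7*, a choice made after seeing the data, the sums overlapped, at 1880 to 2330 CPM and 1870 to 1940 CPM. Of the single genes, *Irf9* and *Ifnar2*, 2 of the 14, were lower in Lpcat3 KOMac cells without overlap (5.2% over all genes). *Irf7*, a transcription factor of the interferon response stood at 714, 694 and 546 CPM in the WT libraries (mice 1 to 3) against 567, 383 and 436 CPM in the Lpcat3 KOMac libraries (mice 1 to 3), a log2 fold change of -0.50 ± 0.19 (SE, edgeR adjusted p = 1). The groups overlapped by WT mouse 3 alone. *Irf1*, another transcription factor of this response, had a log2 fold change of -0.20 ± 0.19 (SE). *Ifng* and *Ifnb1*, the genes of the interferons themselves, were at most at 0.193 and 0.0219 CPM in any library. *Cxcl9*, at 0.42, thus had a log2 fold change of the other sign than the median of this list, within its own error.

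*Cxcl12* (ENSMUSG00000061353, chromosome 6, 117168535 to 117181367, plus strand) stood at 79.1, 24.1 and 33.8 CPM in the WT libraries (mice 1 to 3) against 40.8, 72.3 and 37.4 CPM in the Lpcat3 KOMac libraries (mice 1 to 3). WT mouse 1 and Lpcat3 KOMac mouse 2 were high, and the other 4 mice lay between 24.1 and 40.8 CPM. In edgeR the log2 fold change was 0.14 ± 0.52 (SE, 95% interval -1.15 to 1.42, edgeR adjusted p = 1). It was 0.80 without WT mouse 1, and it became negative without WT mouse 2 (-0.17), without WT mouse 3 (-0.04) or without Lpcat3 KOMac mouse 2 (-0.22).

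The same mice were highest for the hepatocyte markers. *Alb*, the albumin mRNA, stood at 13100, 1200 and 1320 CPM in the WT libraries (mice 1 to 3) against 3130, 9290 and 3140 CPM in the Lpcat3 KOMac libraries (mice 1 to 3). With the 5 hepatocyte markers, averaged as log2 levels, as a covariate in edgeR, the log2 fold change of *Cxcl12* was -0.01 and its standard error fell from 0.52 to 0.21. Without both of the mice with the highest hepatocyte levels, a choice made after seeing the data, it was 0.44 ± 0.18 (SE, edgeR adjusted p = 0.495). The stromal transcript *Dcn* was nearer to *Cxcl12* (rank 563, 0.33 on the log2 scale) than *Alb* was (rank 9884, 0.72). This measure counts the size of the swings between mice as well as their pattern. Over all libraries *Alb* varied by 10.8-fold, against 3.28-fold for *Cxcl12* and 3.38-fold for *Dcn*. The ranks alone therefore do not tell which pattern was closer to that of *Cxcl12*. *Dcn* stood at 78.1, 29 and 67.2 CPM in the WT libraries (mice 1 to 3) against 70.8, 98.2 and 54.8 CPM in the Lpcat3 KOMac libraries (mice 1 to 3). It shared the low WT mouse 2 with *Cxcl12* and was highest in Lpcat3 KOMac mouse 2. The nearest genes were *Acot7* (0.07), *Zfp9* (0.10) and *Sema4a* (0.10). Of the endothelial markers, 6 of 8 had positive log2 fold changes (median 0.61, beside -0.04 over all genes) and 0 were called. *Kdr*, *Ptprb* and *Gpr182* (log2 fold changes 0.79, 0.77 and 0.73) had unadjusted p-values under 0.05 in edgeR, as did 2.64% of all genes tested. All 8 stellate cell and fibroblast markers were positive (median 0.38), with 0 called. Which cells gave the *Cxcl12* reads was not tested.

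*Cxcr4*, the signaling receptor of CXCL12, stood at 31.9, 18.7 and 35.2 CPM in the WT libraries (mice 1 to 3) against 22.6, 12.4 and 22.9 CPM in the Lpcat3 KOMac libraries (mice 1 to 3). The lowest mouse was Lpcat3 KOMac mouse 2, in which *Cxcl12* was high, and the groups overlapped through WT mouse 2. The log2 fold change was -0.57 ± 0.34 (SE, 95% interval -1.39 to 0.26, edgeR adjusted p = 1). *Ackr3*, which takes up CXCL12 without signaling through G proteins, was at 0.0399 to 0.775 CPM, with its lowest value in WT mouse 2. *Dpp4*, a membrane protease that inactivates CXCL12 and CXCL10 by clipping their amino terminus, stood at 73.6, 21.5 and 27.2 CPM in the WT libraries (mice 1 to 3) against 57, 70.6 and 33.8 CPM in the Lpcat3 KOMac libraries (mice 1 to 3). WT mouse 1 and Lpcat3 KOMac mouse 2 were again the highest of their genotypes. In the list of 7 genes of chemokine processing and transport, which also holds *Cxcr4* and *Ackr3*, 0 were called, and *Mmp9*, a matrix protease that cuts chemokines, was the 1 gene with an unadjusted p-value under 0.05, at a log2 fold change of -1.78 ± 0.41 (SE). *Mmp12*, a macrophage metalloproteinase that also cuts chemokines, had a difference of the other sign, at 217, 94.3 and 345 CPM in the WT libraries against 534, 387 and 482 CPM in the Lpcat3 KOMac libraries, a log2 fold change of 1.10 ± 0.46 (SE). Neither gene overlapped between the genotypes, as was the case for 1208 of all genes tested (7.49%).

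*Cxcl13* (ENSMUSG00000023078, chromosome 5, 95956951 to 95961068, plus strand) showed the widest spread and the largest difference of means of the 7. It stood at 78.2, 209 and 52.7 CPM in the WT libraries (mice 1 to 3) against 68.3, 13 and 77.9 CPM in the Lpcat3 KOMac libraries (mice 1 to 3), on 675 to 10477 counts. WT mouse 2 stood far above the others and Lpcat3 KOMac mouse 2 far below, while the remaining 4 mice lay between 52.7 and 78.2 CPM with the genotypes mixed. The means were 113 ± 84 CPM (SD, n = 3) for WT against 53.1 ± 35 CPM (SD, n = 3) for Lpcat3 KOMac cells. Its log2 fold change was -1.09 ± 0.82 (SE, 95% interval -3.14 to 0.95, edgeR adjusted p = 1). It was -0.30 without WT mouse 2, -0.61 without Lpcat3 KOMac mouse 2, and between -1.46 and -1.29 without any other mouse. Of all genes tested, 95.7% had a smaller ratio of highest to lowest library.

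Of the 8 Kupffer cell markers, *Timd4* and *Marco* had profiles near that of *Cxcl13*. Chosen for comparison after its values were seen, *Timd4*, a receptor for phosphatidylserine on long-lived Kupffer cells, was at rank 6 of 16133 in likeness to *Cxcl13* (0.36 on the log2 scale), and the scavenger receptor *Marco* was at rank 37 (0.54), where the median over all genes was 1.2. *Timd4* stood at 428, 938 and 344 CPM in the WT libraries (mice 1 to 3) against 478, 123 and 645 CPM in the Lpcat3 KOMac libraries (mice 1 to 3). *Marco* was at 1080, 3170 and 999 CPM and at 1350, 148 and 2860 CPM in the same order. All 3 genes were highest in WT mouse 2 and lowest in Lpcat3 KOMac mouse 2, but in Lpcat3 KOMac mouse 3 *Marco* was nearly as high as in WT mouse 2 and *Cxcl13* was not. The ratio of *Cxcl13* to *Timd4* per exonic base came to 0.345, 0.422 and 0.29 in the WT libraries (mice 1 to 3) against 0.27, 0.2 and 0.228 in the Lpcat3 KOMac libraries (mice 1 to 3). Since *Timd4* was taken for its likeness to *Cxcl13*, the narrow range of this ratio adds nothing to that likeness. Every Lpcat3 KOMac ratio was below every WT ratio (two-sided exact permutation p = 0.1, and 3 mice against 3 allow no smaller p), for a ratio picked after its values were seen out of 7 ratios computed. The other 6 markers varied less than these 2, with a ratio of highest to lowest library of 1.39 (*Cd68*) to 1.89 (*Clec4f*), around the median of 1.62 over all genes. *Clec4f*, a lectin specific to Kupffer cells, was at rank 558 (0.94). *Clec4f* had a log2 fold change of -0.44 and was lower in Lpcat3 KOMac cells without overlap, as were 839 of all genes tested (5.2%). All 8 Kupffer cell markers had negative log2 fold changes with a median of -0.23, beside -0.04 over all genes, and 0 of the 8 were called. The part of these marker differences in the *Cxcl13* difference was not tested. The 3 nearest genes were *Adra2c* (0.26), an adrenergic receptor, *Erich3* (0.28) and *Raver2* (0.34). *Adra2c* stood at 2.08, 5.37 and 1.9 CPM in the WT libraries against 2.31, 0.54 and 2.51 CPM in the Lpcat3 KOMac libraries, with the same extremes as *Cxcl13*.

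**Figure D3:**
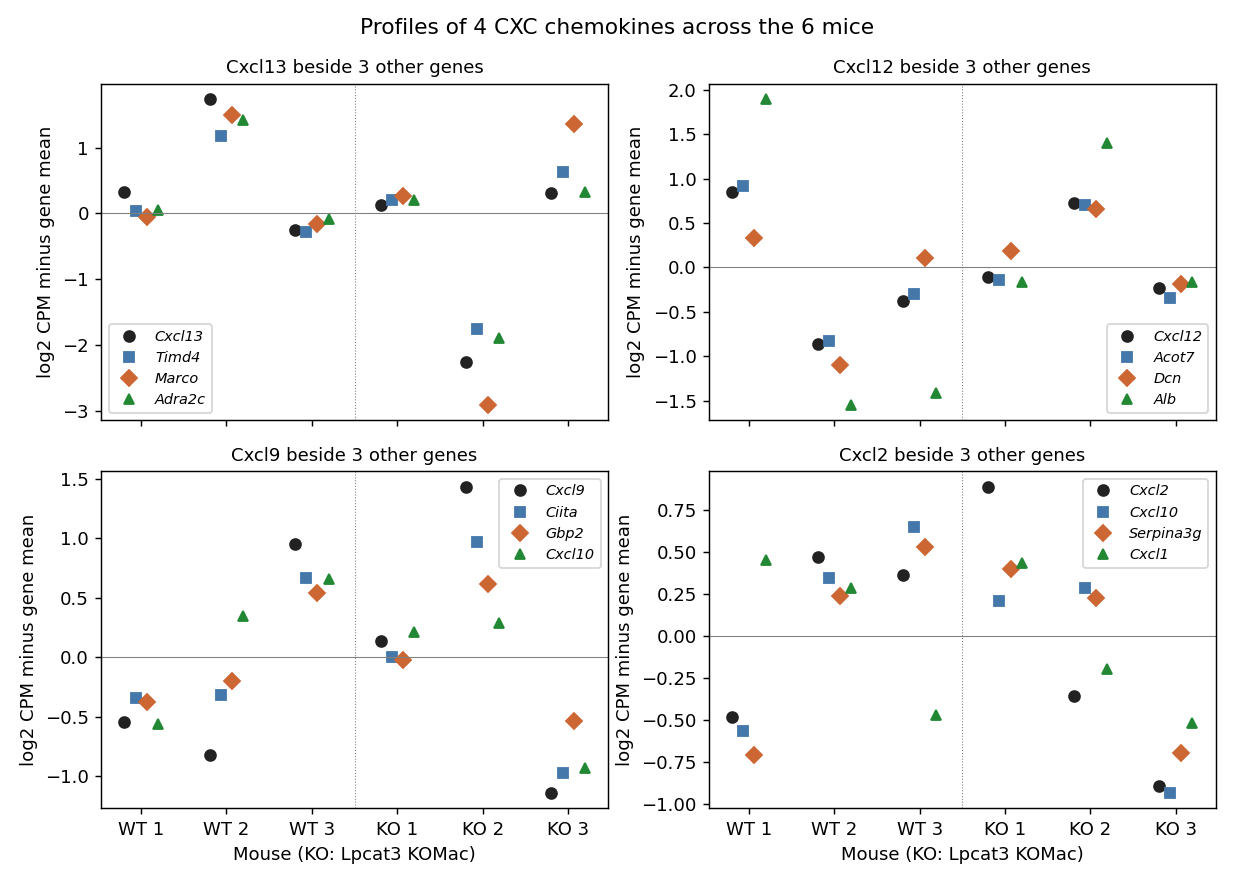
Log2 CPM minus each gene's mean over the 6 mice, for *Cxcl13*, *Cxcl12*, *Cxcl9* and *Cxcl2*, each beside 3 other genes. *Cxcl13*, *Timd4*, *Marco* and *Adra2c* share their highest mouse (WT 2) and lowest mouse (Lpcat3 KOMac 2), *Cxcl12* and *Acot7* are high in WT 1 and Lpcat3 KOMac 2, and *Cxcl9* and *Ciita* in WT 3 and Lpcat3 KOMac 2.

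Large peritoneal macrophages and mesothelial cells are other known sources of CXCL13. Markers of these peritoneal macrophages summed to 8.27 to 68.1 CPM in WT and 20.4 to 94.5 CPM in Lpcat3 KOMac cells, lowest in WT mouse 2, where *Cxcl13* was highest. These markers did not move together, as *Gata6* was highest (2.39 CPM) and *Alox15* lowest (1.52 CPM) in the same library, Lpcat3 KOMac mouse 2. Mesothelial markers summed to at most 1.45 CPM in any library. The part of either cell type in the *Cxcl13* values was not tested. *Cxcr5*, the receptor of CXCL13, was at 0.446 to 1.14 CPM in WT and 0.733 to 0.914 CPM in Lpcat3 KOMac cells, a log2 fold change of -0.02 ± 0.39 (SE), and the 4 B cell markers summed to 14.9 to 26.9 CPM and 19.8 to 20.4 CPM. *Ackr4*, an atypical receptor that also binds CXCL13, was at 1.09 to 2.12 CPM with a log2 fold change of 0.38 ± 0.28 (SE).

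*Cxcl14* (ENSMUSG00000021508, chromosome 13, 56288647 to 56296551, minus strand) was the steady member. It stood at 25.2, 24.3 and 25.7 CPM in the WT libraries (mice 1 to 3) against 25.8, 21.4 and 31.6 CPM in the Lpcat3 KOMac libraries (mice 1 to 3). The WT mice were nearly identical, with 25.1 ± 0.686 CPM (SD, n = 3), and Lpcat3 KOMac mice lay on both sides of them, with 26.3 ± 5.13 CPM (SD, n = 3). In edgeR the log2 fold change was 0.07 ± 0.15 (SE, edgeR adjusted p = 1), and its 95% interval of -0.31 to 0.45 corresponds to 0.805 to 1.36 times the WT level. Without Lpcat3 KOMac mouse 3 the log2 fold change was -0.06. The 95% interval was the only one of the 7 that left out both a 2-fold rise and a fall to less than 0.5 of the WT level. *Cxcl14* varied by 1.48-fold over the libraries in which *Alb* varied by 10.8-fold and *Cxcl13* by 16.1-fold. The nearest genes were *Taf9* (0.05), *Pfkfb3* (0.05) and *2700097O09Rik* (0.06), where the median over all genes was 0.29. The glycolytic regulator *Pfkfb3* stood at 56.5, 55.8 and 57.2 CPM in the WT libraries against 56.1, 48.1 and 65.5 CPM in the Lpcat3 KOMac libraries, with the same lowest and highest mouse as *Cxcl14*.

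**Figure D4:**
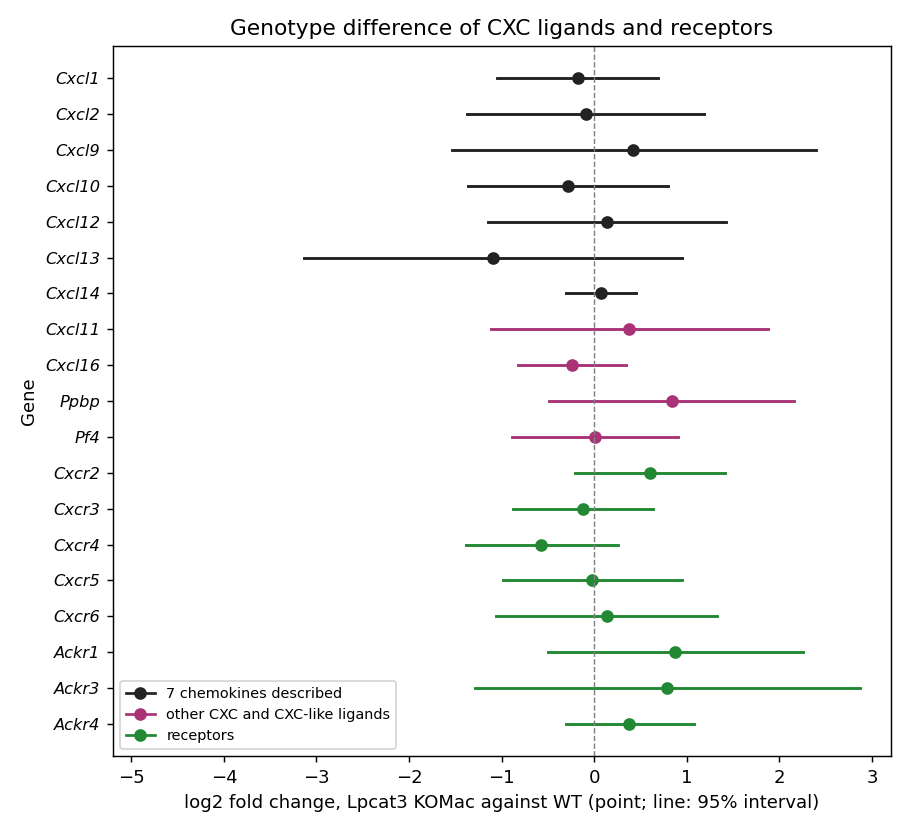
Log2 fold change of Lpcat3 KOMac against WT (point) with its 95% interval (line) from edgeR, for the 7 chemokines (black), other tested CXC and CXC-like ligands (purple) and receptors (green). Every interval includes 0, and the interval of *Cxcl14*, -0.31 to 0.45, is the narrowest of the 7 while that of *Cxcl13*, -3.14 to 0.95, is the widest.

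Levels of different genes were set side by side per exonic kilobase. In this unit the order of means over the 6 mice was *Cxcl13* (72.4 CPM per kilobase), *Cxcl9* (16.1), *Cxcl14* (14.1), *Cxcl10* (10.2), *Cxcl2* (8.48), *Cxcl12* (5.86) and *Cxcl1* (2.73). Neighbors in this order overlapped in range. *Cxcl13* was above *Cxcl9* in 5 of 6 mice, *Cxcl9* above *Cxcl14* in 3, *Cxcl14* above *Cxcl10* in 5, *Cxcl10* above *Cxcl2* in 5, *Cxcl2* above *Cxcl12* in 3 and *Cxcl12* above *Cxcl1* in 5. The middle of the order depended on the length used, since the exonic length counts each base of any transcript. Per kilobase of the median coding transcript, a choice made after seeing the data, *Cxcl10* was at 18.8, *Cxcl9* at 16.9, *Cxcl14* at 15.6, *Cxcl12* at 15.3 and *Cxcl2* at 11.8, while *Cxcl13* at 72.4 and *Cxcl1* at 5.36 kept their places. In CPM, the member with most reads differed between mice: *Cxcl12* in WT mouse 1, *Cxcl9* in WT mouse 3 and Lpcat3 KOMac mouse 2, and *Cxcl13* in the other 3.

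Of 8 further CXC and CXC-like ligands, 4 had enough reads to be tested and 0 were called. *Cxcl16*, a membrane-bound ligand that also serves as a scavenger receptor, stood at 210, 362 and 350 CPM in the WT libraries (mice 1 to 3) against 284, 219 and 276 CPM in the Lpcat3 KOMac libraries (mice 1 to 3). Its values overlapped and its log2 fold change was -0.24 ± 0.24 (SE). Its receptor *Cxcr6* was at 0.28 to 0.791 CPM. *Pf4*, which encodes platelet factor 4 and is also expressed by macrophages, was at 11.1 to 26.2 CPM in both groups together, with a log2 fold change of 0.01 ± 0.36 (SE). The platelet markers summed to at most 3.34 CPM, and which cells gave the *Pf4* reads was not tested. *Cxcl3*, a close paralog of *Cxcl1* and *Cxcl2*, had at most 16 counts, *Cxcl5* at most 6 and *Cxcl17* at most 4 in any library, and *Cxcl15* had 0 counts in all 6. Of the 9 receptors, 8 were tested and 0 were called, with a median log2 fold change of 0.26, 5 positive and 3 negative.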

How the data were processed

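RNA of F4/80-positive liver cells of 3 WT and 3 Lpcat3 KOMac mice was sequenced after poly-A selection with a kit that does not mark strand, so reads of overlapping genes on opposite strands cannot be told apart. The authors deposited raw read counts per Ensembl gene, 1 table per mouse. The submitters' processing notes name Trimmomatic 0.36, STAR 2.5.2b, featureCounts of Subread 1.5.2 and GRCm38. How multi-mapping reads were counted, which could affect *Cxcl1* and *Cxcl2*, is not given in the sources used here. Symbols came from GENCODE M21, which held 49056 of the 49315 identifiers. No pair of libraries was a copy (chi-square per degree of freedom at least 37).

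Counts were compared with edgeR 4.0.16 (R 4.3.3), TMM scaling, the default filter (minimum count 10), robust quasi-likelihood and genotype as the only term, adjusted by Benjamini-Hochberg over 16134 genes, with a threshold of 0.05. Each SE was taken as |log2 fold change| over the root of its F statistic. Single ratios had exact permutation tests. Likeness used log2 CPM with a prior count of 2. Alternatives included DESeq2 1.42.0 and limma-voom (limma 3.58.1), and the fits were tested on simulated data. That simulation gave every gene the same spread between libraries, smaller than the typical spread in these data. It cannot show how the fits perform for genes as variable as most of the 7. The members and lists were chosen with earlier results of these data known. The genes named were the 7 members, their receptors and partners by role, and the 3 nearest genes of each. *Nfkbia*, *Atf3*, *Hspa1a*, *Hspa1b*, *Irf7*, *Irf9*, *Ifnar2*, *Mmp9*, *Mmp12*, *Kdr*, *Ptprb* and *Gpr182*, and the comparators *Timd4*, *Marco*, *Clec4f*, *Dcn*, *Alb*, *Gbp2* and *Ccl4*, were named after their values were seen. The edgeR p-values set the difference between genotypes against the spread between mice, estimated with information from all genes tested. The permutation p-values compare it with rearrangements of the genotype labels.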

Additional observations from a re-analysis of the deposited data

How the results depend on the processing

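With 3 mice against 3, no chemokine passed the threshold in edgeR's quasi-likelihood test under any alternative, and the lowest adjusted p-value of the 7 over the alternatives was 0.435. Of 98 alternative log2 fold changes, 16 had the other sign. DESeq2 called 11 genes over the whole table against 0 in edgeR. Genes under 0.05 before adjustment numbered 426 in edgeR, 1470 with the hepatocyte covariate, and 179 to 2028 with 1 mouse left out (227 without WT mouse 2, 245 without Lpcat3 KOMac mouse 2). With the hepatocyte covariate, *Cxcl2* went to 0.11 and *Cxcl12* to -0.01. Without WT mouse 1 and Lpcat3 KOMac mouse 2 together, chosen after seeing the data, *Cxcl1* went to 0.08 and *Cxcl9* to -0.68. Leaving out each mouse in turn gave 0 genes called and ranges of -0.45 to 0.03 for *Cxcl1*, -0.73 to 0.25 for *Cxcl2*, -0.43 to 1.18 for *Cxcl9*, -0.56 to 0.05 for *Cxcl10*, -0.22 to 0.80 for *Cxcl12*, -1.46 to -0.30 for *Cxcl13* and -0.06 to 0.21 for *Cxcl14*. The cause was not tested. The level of *Cxcl14* in WT was 24.3 CPM with total counts alone, beside 25.1 with TMM. Counting error matters for *Cxcr2*, *Cxcl11* and the other genes with few reads.

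Both genotypes carry replicate numbers 1 to 3, which are labels of different mice. Across genes, libraries with the same number, each taken relative to its genotype mean, correlated at -0.3, -0.6 and 0.36. The highest correlation, 0.67, was between WT mouse 1 and Lpcat3 KOMac mouse 2, the libraries highest for hepatocyte markers. Because such shared content enters these correlations, they gave no clear sign of pairing by number but cannot decide it. With the replicate block edgeR called 0 genes (138 of all genes fell under 0.05 before adjustment), and the log2 fold changes were -0.18, -0.27, 0.36, -0.28, 0.25, -1.01 and 0.05 for *Cxcl1*, *Cxcl2*, *Cxcl9*, *Cxcl10*, *Cxcl12*, *Cxcl13* and *Cxcl14*. The block changed no call.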
